A study of Mus musculus with 2 samples.

Results

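These regions are narrow peaks of ubiquitinated histone H2A (uH2A) that lay outside promoters and were covered by many different wild-type tags. They came from the list of peaks that the authors called with Bmi1 wild-type tags as signal and Bmi1 null tags as background. The members were selected on their wild-type tags and, through the list, on the excess of these over null tags. A member was an autosomal peak that was absent from the study's list of promoter peaks, spanned less than 2000 bp and held wild-type tags at 9 or more distinct combinations of position and strand. Each tag was placed 116 bp downstream of its 5′ end along its own strand. Of 16406 listed peaks, 16205 were autosomal, 15540 of these were not promoter peaks and 14726 of these were under the width limit. The last condition left 4079 members, or 24.9% of the list. A further 16 peaks met the other conditions but lay on sex chromosomes.

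The study sequenced chromatin immunoprecipitated with the E6C5 antibody from C57BL/6 mouse embryonic fibroblasts (MEFs), with 1 library from cells labelled Bmi1 WT and 1 from cells labelled Bmi1 KO, called null here. Both lines came from littermates, had been immortalized with TBX2 and received no further treatment. The wild-type library held 6114925 uniquely mapped tags of 25 bp and the null library 8020248. With 1 line and 1 library per genotype, a difference between genotypes cannot be told apart from a difference between lines or preparations, and no test between them was made.

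Ubiquitin is attached to histone H2A by Polycomb repressive complex 1, in which a Ring1 protein carries the ligase activity and Bmi1 is a partner that stimulates it. The mark is best known from silent developmental genes, whose promoters often also carry H3K27me3, the mark of Polycomb repressive complex 2. H3K4me3 is in general the mark of promoters that are active or poised.

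The supplied promoters were those the study lists with CpG-rich sequence, of which a part is held here, and those in its list of promoter peaks. The sequence of the members themselves is not shown, because a genome of build mm8 was not used here. For orientation, the 250 bases upstream of a RefSeq start (GRCm38.p6) are given for 1 promoter in each mark class, with CG dinucleotides in capitals. It is the promoter closest to its member among the 10 that were named for that class by number of positions. Some H3K27me3-only promoters outside these 10 had a closer member, such as Otp at 153 bp. Kcnd3, a potassium channel gene, was listed with H3K27me3 only, and the stretch shown is chr3:105451640-105451889 on the plus strand. Pcdh7, a protocadherin gene, was listed with H3K4me3 only, and the stretch shown is chr5:57717831-57718080 on the plus strand.
Kcnd3: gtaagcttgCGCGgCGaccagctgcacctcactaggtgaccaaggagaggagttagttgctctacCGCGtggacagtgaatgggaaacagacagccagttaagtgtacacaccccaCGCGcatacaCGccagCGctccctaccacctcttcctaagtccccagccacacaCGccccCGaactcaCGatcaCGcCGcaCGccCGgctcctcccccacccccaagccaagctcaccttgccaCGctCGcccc
Pcdh7: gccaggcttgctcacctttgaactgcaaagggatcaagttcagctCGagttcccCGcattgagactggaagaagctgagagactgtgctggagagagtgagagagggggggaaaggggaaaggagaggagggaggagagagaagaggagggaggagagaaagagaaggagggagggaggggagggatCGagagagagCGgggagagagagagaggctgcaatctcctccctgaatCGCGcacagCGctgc
The Kcnd3 stretch held 18 CG dinucleotides, a number that 21.7% of 32851 RefSeq promoter stretches of this length reached. The Pcdh7 stretch held 7, which 46.3% reached, against a median of 6. In mm8, the member near Kcnd3 began 1.51 kb beyond the edge of the 2 kb promoter and the member near Pcdh7 began 0.315 kb beyond it.

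The word narrow held only against the width limit. Members had a median width of 1257 bp (range 241 to 1999 bp), whereas the 10647 narrow non-promoter peaks with fewer positions had a median of 572 bp and all listed peaks 746 bp. Members were therefore wider than the typical listed peak, and narrow only beside the 814 non-promoter peaks of 2000 bp or more with at least 9 positions, whose median was 2330 bp. Many members lay close to the limit on positions. Exactly 9 positions were found in 1133 members (27.8%), and the median was 11 (quartiles 9 and 12, maximum 32). Members with 9 positions had medians of 16 wild-type and 2 null tags, and the 1401 narrow peaks with 8 positions had 15 and 2. The 352 members within 200 bp under the width limit had a scaled ratio of 7.38, and the 291 peaks up to 200 bp over it had 7.34. On either side of each limit these values lay close together.

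Inside the members, which were chosen for these values, the libraries differed as the selection requires. A member held a median of 19 wild-type tags (quartiles 16 and 21) and 3 null tags (2 and 4). In sum the members held 90214 wild-type and 12269 null tags, which is 1.48% and 0.153% of the libraries. With wild-type counts raised 1.31 times to make up for the smaller library, the wild-type to null ratio was 9.64 (95% Clopper-Pearson interval 9.46 to 9.83). Intervals cover counting error only, and copies made by PCR do not count separate molecules. The null library was not empty in most members. It held 0 tags in 270 members (6.62%), against 29.1% of the narrow peaks with fewer positions.

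Repeated tags made up a large part of the ratio. When each combination of position and strand was counted once in both libraries, the ratio fell to 5.83 (5.71 to 5.96). A ratio of 5 or more then remained in 2610 members (64.0%), where 57.8% of all listed peaks reached it. The floor on positions favours members here, since peaks with very few positions cannot reach this ratio. Tags beyond the first at a position made up 49.2% of the wild-type tags in members, 17.8% of the null tags in members, and 33.0% and 34.5% of the whole wild-type and null libraries. Peaks were called on an excess of wild-type over null tags with repeats included. The shares in members are therefore not independent of the calling, and its part in them was not tested. The repeat share of wild-type tags was 59.4% in narrow peaks with fewer positions and 42.1% in the wide peaks, so the members lay between these classes. A single position held more than 50% of the tags in 26 members (0.637%) but in 21.7% of the narrow peaks with fewer positions, a difference that the floor on positions favours. Tags with 0, 1 and 2 mismatches made up 43.2%, 29.7% and 27.1% of the wild-type tags in members, close to the 42.8%, 28.2% and 29.0% of the library.

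A small group of members stood apart. The 24 members with more than 100 tags held 12.1% of all member tags, and in 19 of them over 90% of the tags lay on 1 strand. Among the remaining 4055 members, 52 (1.28%) had such a strand imbalance. The repeat share was 96.8% in the 24 and 42.6% in the others, and the ratio with each position counted once was 6.84 (5.25 to 9.04) against 5.82 (5.70 to 5.95). High totals in this group thus came from repeated tags, mostly on 1 strand, since the median number of positions was 12 against 11 in the others. Outside chromosome 18, the member with most tags was chr3:25564433-25565154 (mm8), where 1208 wild-type tags lay at 9 positions and 897 of them at a single position. The member with most positions, chr6:136650909-136651473, held 856 tags at 32 positions, of which 820 were on the minus strand, and 7 null tags. A further peak of this kind, chr3:112644130-112644599, held 674 tags at 10 positions. The member with most tags of all lay on chromosome 18 and held 3966 tags at 19 positions, with 2322 at a single position, which is 4.40% of the member tags. Without it, the ratio inside members was 9.23 and the repeat share 46.9%.

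Other members had many positions without such piles. The member at chr12:108600762-108601842 held 82 tags at 24 positions, 41 on each strand, and 2 null tags. At chr11:98522236-98523796 there were 40 tags at 24 positions and 8 null tags, and at chr15:84428974-84430512 there were 34 tags at 24 positions and 3 null tags. In these members both strands were represented at many places. The member at chr1:115731366-115732047, with 199 tags at 26 positions, was closer to the piled kind, since 179 tags lay on the minus strand. Outside chromosome 18, the members with no null tag and most positions were chr17:78152719-78153285, chr5:124062358-124063801 and chr6:100092354-100094252. They held 60 wild-type tags at 19 positions, 32 at 19 and 24 at 16. Counted with repeated tags, the lower bounds of their ratios were 20.7, 10.7 and 7.89. These members were picked for having no null tag, so the bounds only describe the selection.

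The ratio of the members fell with their width, in values on which they were selected. With each position counted once, it was 10.7 (8.03 to 14.5) in the 42 members under 500 bp, 5.97 (5.70 to 6.26) in the 973 members of 1000 to 1250 bp and 5.07 (4.80 to 5.36) in the 467 members of 1750 bp or more. Positions per kb fell over the same classes, from a median of 22.4 to 8.99 and 7.07. Median positions per member in these classes were 10, 10 and 13, and the part of the falls that the rule makes was not tested. The distance between plus-strand and minus-strand tags reflects the fragment length. Its most frequent value inside the members was 149 bp in the wild-type library, with values from 120 to 177 bp on single autosomes, and 129 bp in the null library, where only 1607 pairs of tags entered. The placement of tags by 116 bp assumes fragments 2 times that long, so these distances were shorter than the length assumed.

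**Figure D1:**
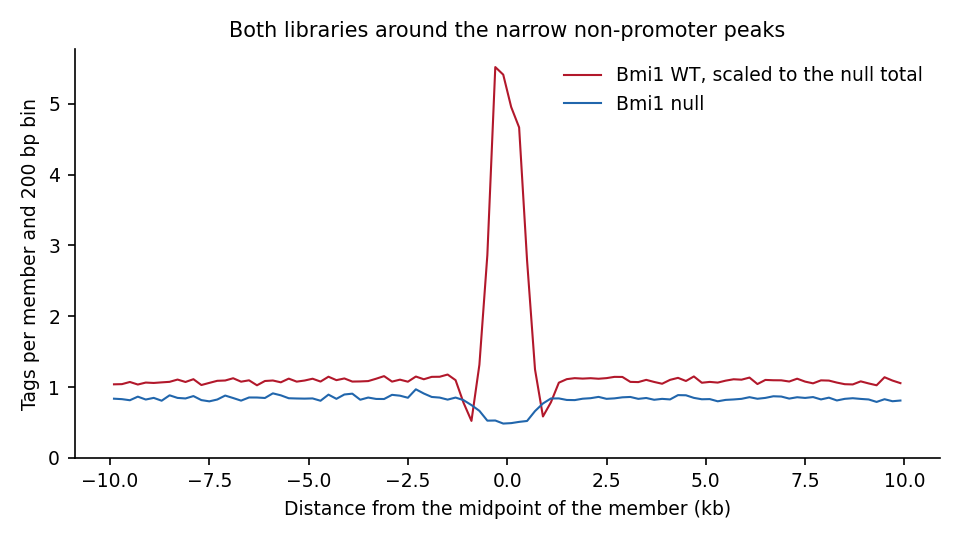
Mean tags per member in 200 bp bins (vertical axis) by distance from the midpoint of the member in kb (horizontal axis), for the wild-type library scaled by 1.31 (red) and the null library (blue), over 4079 members. The wild-type line peaks at 5.52 tags and the null line dips to 0.484, while 9.9 kb to the left they stand at 1.04 and 0.835.

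Around the members, from 0.5 kb beyond their edges outward, wild-type tags exceeded null tags as well, but by a small factor. These tags were not used by the rule, and tags in any listed peak were left out. Between 1 and 5 kb from the edges, the scaled ratio was 1.22 (1.21 to 1.23), where the mean over all autosomal bases outside listed peaks was 0.962. Both libraries were denser there than their autosomal mean, the wild-type library 1.71 times and the null library 1.35 times. The surroundings of members were therefore tag-rich in both genotypes, and more so in the wild-type library. Directly beside the edges the wild-type library held 0 tags within 250 bp in every class of peak, and the null library held 1.21 times its autosomal mean at members. Between 0.25 and 0.5 kb from members the ratio was 0.723 (0.697 to 0.750). Peaks were called on wild-type tags, and member edges lie 115 or 116 bp beyond the outermost ones. Wild-type counts this close to the edges are thus not independent of the calling, and its part was not tested. Inside the members the null library dipped to 0.484 tags per bin from about 0.84 in the flanks, and the part of this dip that the selection on low null counts made was not tested.

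The ratio was lower in the farther ranges. The ratio was 1.21 at 5 to 10 kb, 1.18 at 10 to 20 kb, 1.14 at 20 to 50 kb and 1.08 at 50 to 100 kb. Each base was counted once, in the range of its nearest member, so the far ranges hold fewer bases than their span would give and lean to isolated members. The fall is therefore not a decay measured at the same members. Among the classes of peak at 1 to 5 kb, wide non-promoter peaks had the highest ratio, 1.27 (1.25 to 1.30), followed by members, by promoter peaks with 1.17 (1.15 to 1.20) and by narrow peaks with fewer positions with 1.07 (1.06 to 1.08). The intervals of members did not overlap those of the other classes, although the classes share neighbourhoods. Peak by peak, the ratio between 1 and 20 kb had a median of 1.18 (quartiles 0.996 and 1.38) at members. It was above 1 at 3031 members (74.3%, 72.9 to 75.6), where 60.9% of all listed autosomal peaks, 80.7% (77.8 to 83.4) of the wide peaks and 53.9% of the narrow peaks with fewer positions were above 1.

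**Figure D2:**
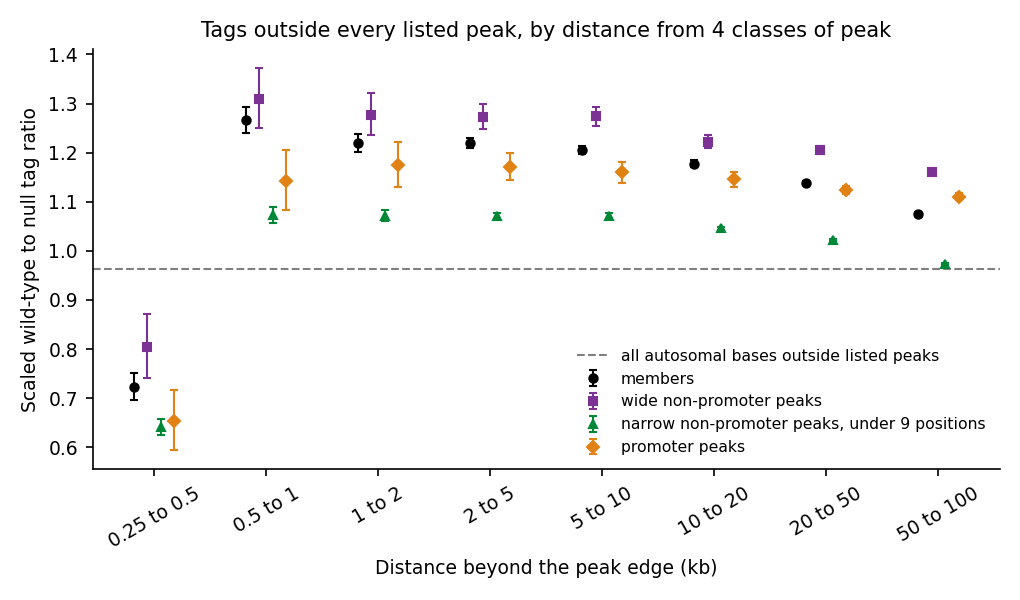
Scaled wild-type to null ratio (vertical axis, not starting at 0) of tags outside every listed peak, by distance beyond the peak edge in kb (horizontal axis), for 4 classes of peak; bars are 95% Clopper-Pearson intervals and the dashed line is the autosomal mean of 0.962. Members (black) fall from 1.27 at 0.5 to 1 kb to 1.08 at 50 to 100 kb. At 0.25 to 0.5 kb the ratio was 0.723 at members and below 1 in every class, and the wild-type library held 0 tags within 0.25 kb of the edge in every class.

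The ratio in the flanks depended on how the libraries were scaled. When the libraries were scaled within each 1 Mb bin in place of their totals, the ratio at 1 to 5 kb was 1.01, and the ratio inside members was 8.12. At the 1034 members with no other listed peak within 50 kb, the flank ratio was 1.09 (1.07 to 1.11). The flank ratio was thus close to that of the surrounding megabase, whose totals include the tags in peaks, and it was smaller at isolated members.

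Members were concentrated in megabases of high ratio. Of 2384 autosomal bins of 1 Mb, 1077 (45.2%) held no member, while 55 bins with 10 or more held 636 members and the fullest bin held 18. Bins were ordered by the scaled ratio of their tags outside listed peaks and divided into 5 equal groups. Members per bin rose from 0.264 (0.220 to 0.315) in the group with the lowest ratios through 0.396, 0.884 and 1.95 to 5.06 (4.86 to 5.26) in the group with the highest. This last group, with ratios from 1.08 to 1.58, held 2412 members (59.1%) but 35.3% of the narrow peaks with fewer positions. Members also made up a growing share of the listed peaks, from 10.2% in the lowest group to 34.3% in the highest. The floor counts wild-type positions, and the ordering uses wild-type tags of the same megabases. This share and the contrast with peaks of fewer positions are therefore not independent of the rule, and its part in them was not tested.

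Null tags moved with the number of members too. In bins ordered by null tags outside listed peaks, members per bin rose from 0.266 in the lowest group to 4.43 in the highest, so regional tag density and regional ratio were not separated by this ordering. Their parts in the number of members were not tested. Between the lowest and highest ratio groups, the ratio inside members fell from 15.5 (13.9 to 17.3) to 8.42 (8.22 to 8.63). With each position counted once it was 6.30 (5.55 to 7.17) and 5.77 (5.61 to 5.93), intervals that overlap. The repeat share of members fell from 67.1% to 41.6%. Narrow peaks with fewer positions changed in the same direction, the ratio from 14.9 to 11.4 and the repeat share from 68.9% to 55.0%, but with each position counted once their ratio was 5.64 (5.27 to 6.04) and 6.02 (5.83 to 6.22). The falls that members shared with these peaks were thus in values that include repeated tags. They lie in the tags on which the peaks were selected and their cause was not tested.

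**Figure D3:**
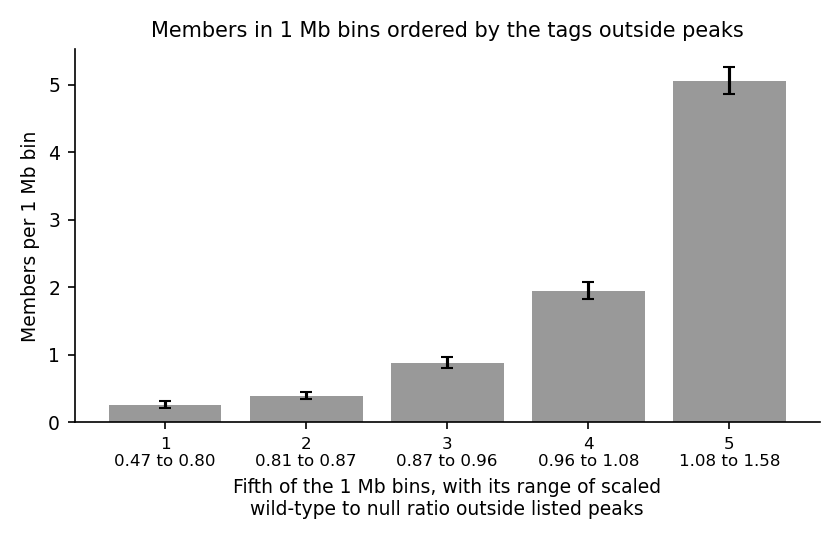
Members per 1 Mb bin (vertical axis) in 5 equal groups of the 2384 bins, ordered by the scaled wild-type to null ratio of tags outside listed peaks, whose range stands under each bar; error bars are exact 95% Poisson intervals. Members per bin rise from 0.264 to 5.06.

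Members were also unevenly spread over the 19 autosomes. The mean was 1.66 members per Mb. Chromosome 15 held 336 members, or 3.25 per Mb (exact Poisson interval 2.91 to 3.61), followed by chromosome 11 with 2.67 (2.39 to 2.97). Chromosomes 5, 17 and 4 had 2.13, 2.12 and 2.12 per Mb, which do not differ beyond their intervals. The lowest densities were 0.938 (0.794 to 1.10) on chromosome 3, 0.912 (0.751 to 1.10) on chromosome 14 and 0.845 (0.673 to 1.05) on chromosome 16, again with overlapping intervals. Chromosome 15 had 3.84 times (3.01 to 4.95) the density of chromosome 16. This value depends on the floor, and with 12 or more positions the highest autosome had 6.19 times (3.98 to 10.1) the density of the lowest.

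Chromosome 15 stood apart in the libraries themselves. It had 3444 wild-type and 4156 null tags per Mb, where the autosomal means were 2414 and 3159. Counted per null tag rather than per Mb, the highest autosome had 2.85 times (2.23 to 3.67) the members of the lowest, and chromosomes 4 and 15 were close together at the top. Without chromosome 15, the highest over the lowest density per Mb was 3.16. Copy number of this chromosome in these lines was not tested.

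Across the 19 autosomes, members per Mb followed wild-type tags per Mb, with a Pearson r of 0.90, a Spearman rho of 0.88 and an r of 0.78 without the 2 chromosomes farthest from the median. For null tags per Mb these were 0.57 and 0.48, and r was 0.13 without the 2 farthest, on which that relation rested. For the ratio of tags outside listed peaks, r was 0.70, rho 0.72 and r without the 2 farthest 0.74. These 3 relations describe points that share 2 libraries and their depth, and the wild-type tags include those that made the peaks. Narrow peaks with fewer positions rose and fell with members across the autosomes (r of 0.93), over a smaller range of 3.42 to 5.72 per Mb. The share of listed peaks that were members ranged from 18% (15.5 to 20.8) on chromosome 3 to 32.8% (29.9 to 35.8) on chromosome 15.

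**Figure D4:**
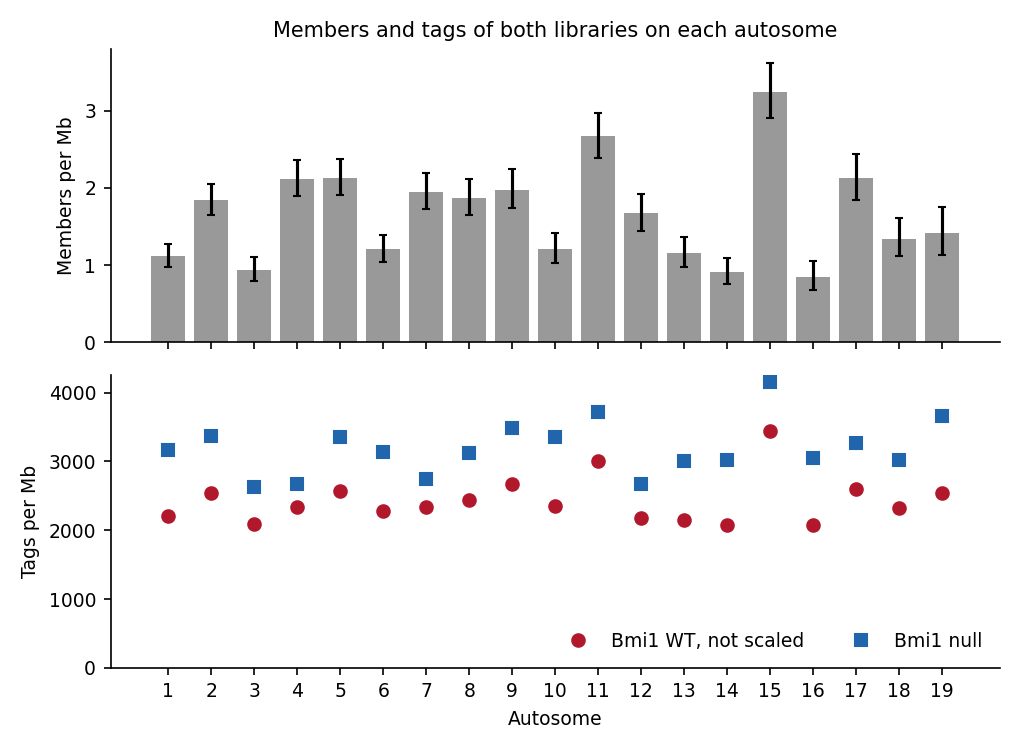
Members per Mb of each autosome with exact 95% Poisson intervals (upper panel) and tags per Mb of the unscaled wild-type library (red circles) and the null library (blue squares, lower panel). Chromosome 15 is highest in all 3, with 3.25 members, 3444 wild-type tags and 4156 null tags per Mb.

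Members often had neighbours. Another listed peak lay within 10 kb of 1160 members (28.4%, 27.1 to 29.9) and within 50 kb of 74.7%. For narrow peaks with fewer positions these shares were 19.2% (18.4 to 19.9) and 57.7%, and for wide peaks 35.4% (32.1 to 38.8) and 79.9%. The median gap to the nearest listed peak was 22024 bp for members and 38576 bp for narrow peaks with fewer positions. Members thus lay in denser groups of peaks than those with fewer positions, and 459 of them (11.3%) had another member within 10 kb.

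No member overlapped a supplied promoter. Of 2507 autosomal promoters supplied, 635 were listed with H3K27me3 only, 1293 with H3K4me3 only, and 579 came from the list of promoter peaks alone. Since the promoters held are a part of the study's list, a distance to the nearest is an upper bound. With that limit, 160 members (3.92%, 3.35 to 4.56) lay within 10 kb of a supplied promoter, 793 (19.4%) within 50 kb and 1351 (33.1%) within 100 kb, and the median distance was 194152 bp. Most members were thus far from the promoters held. Narrow peaks with fewer positions were within 10 kb in 2.77% (2.47 to 3.10) and had a median distance of 318782 bp, and wide peaks were within 10 kb in 5.28% (3.85 to 7.05). Of the distinct positions outside supplied promoters, 2.56% in the null and 2.92% in the wild-type library lay within 10 kb. Within 50 kb these shares were 11.2% and 12.7%, and within 100 kb 19.7% and 22.0%. The share of members was above both libraries at each of these distances. Their distance runs from the nearer edge and that of a tag from a point, which favours members. From midpoint to start site, 3.24% (2.71 to 3.83) of members lay within 10 kb, an interval that includes the wild-type share. That share runs to the promoter edge, which lies nearer than the start site, so this measure disfavours members. Neither comparison at 10 kb is like for like. Nearness also moved with the megabase ratio, since 24.4% of members in the highest ratio group and 6.35% in the lowest lay within 50 kb of a promoter. It did so for narrow peaks with fewer positions too, with 22.4% and 3.01%.

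Seen from the promoters, 157 of 2507 (6.26%) had a member within 10 kb and 700 (27.9%) within 50 kb. The share within 10 kb was higher for H3K27me3-only promoters, with 57 of 635 (8.98%, 6.87 to 11.5), than for H3K4me3-only promoters, with 53 of 1293 (4.10%, 3.09 to 5.33). The H3K4me3-only promoters held are a much smaller part of their class in the study than the H3K27me3-only ones. Whether they represent that class was not tested. Promoters from the list of promoter peaks alone had 47 of 579 (8.12%, 6.03 to 10.6), and since they were listed for a peak of their own, this is not independent of the peaks. Narrow peaks with fewer positions did not show such a gap between the marks, with 12% (9.55 to 14.8) and 11.1% (9.47 to 13.0). Outside listed peaks and promoters, the scaled ratio within 10 kb was 1.23 (1.21 to 1.24) at H3K27me3-only and 1.04 (1.03 to 1.05) at H3K4me3-only promoters. Null tags there stood at 1.29 and 1.25 times the autosomal mean, and wild-type tags, on which the floor acts, at 1.65 and 1.34 times. The part of this regional ratio and of wild-type tag density in the gap between the marks was not tested.

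**Figure D5:**
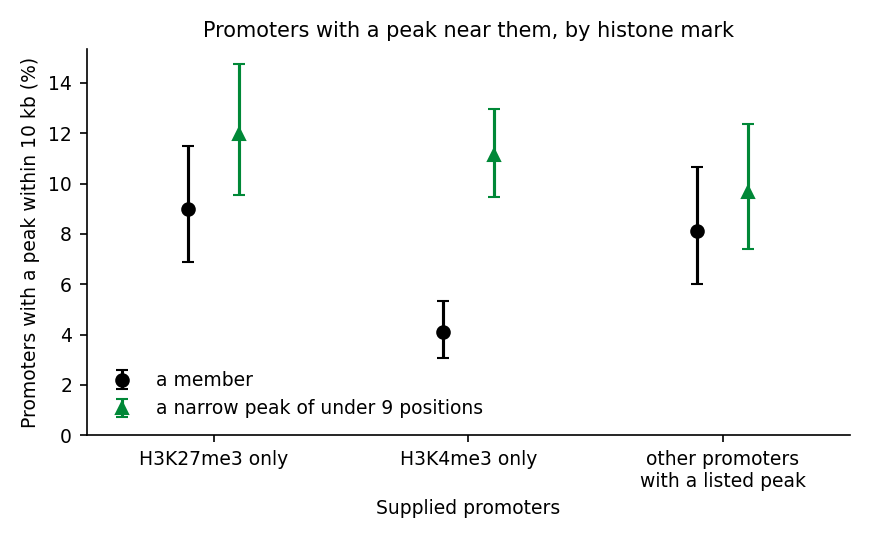
Percentage of supplied promoters with a peak within 10 kb (vertical axis) by histone mark (horizontal axis), for members (circles) and for narrow peaks with fewer than 9 positions (triangles), with 95% Clopper-Pearson intervals. For members the share is 8.98% at H3K27me3-only and 4.10% at H3K4me3-only promoters, and for the other peaks 12% and 11.1%.

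For promoters with a listed strand, the side of the start site could be read. Within 50 kb, 356 of 592 members (60.1%, 56.1 to 64.1) had their midpoint downstream of the start, that is, on the side into which the gene is transcribed. Among narrow peaks with fewer positions 52.7% (49.7 to 55.6) did. Among wide peaks 66 of 122 did (54.1%, 44.8 to 63.2), an interval that overlaps that of members. Within 50 kb the share of members was above 50% near both marks, with 62.8% (56.5 to 68.8) at H3K27me3-only and 58.2% (52.8 to 63.5) at H3K4me3-only promoters. Within 10 kb the share was 53.6% (43.9 to 63.2), with 58.9% (45.0 to 71.9) at H3K27me3-only and 48.1% (34.3 to 62.2) at H3K4me3-only promoters, and 56.5% (49.97 to 62.9) of narrow peaks with fewer positions. These intervals include both 50% and the share of members within 50 kb, so they do not tell the distances apart. Whether the members lie within the genes was not analysed here.

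The groups of genes with a member within 10 kb of their promoter are given with their counts, beside the 6.26% of all supplied promoters. Among other developmental transcription factors, 9 of 81 promoters (11.1%, 5.21 to 20) had one, namely Dmrtc2, Foxd3, Foxn4, Klf13, Neurog3, Olig1, Prdm13, Sox11 and Tcf15. On the list of homeobox genes there were 4 of 59 (6.78%, 1.88 to 16.5), namely Hmx1, Hoxd4, Onecut2 and Otp. The lists are not complete, so these counts depend on their choice. Tgif2 and Cks1b, which are described singly, are on none of them. Secreted developmental signals had 5 of 39 (12.8%, 4.30 to 27.4), namely Fgf3, Fgf8, Fgf23, Slit1 and Wnt7b. All of these intervals include the share of all promoters, so no group of regulators stood out at this number. Ion channels had 7 of 69 within 10 kb (10.1%, 4.18 to 19.8) and 30 of 69 within 50 kb (43.5%, 31.6 to 56.0), the latter above the 27.9% of all promoters. Of these 69 promoters 50 were H3K27me3-only, a class whose share within 50 kb was 34.0%, inside that interval. Within 50 kb the other lists had 30.9% (other developmental transcription factors), 27.1% (homeobox), 33.3% (secreted signals), 26.1% (solute carriers), 18.6% (Zfp) and 19.4% (adhesion), all with intervals that include 27.9%. Solute carriers had 4 of 69, cell adhesion genes 2 of 36 and zinc finger genes named Zfp 2 of 59. None of the 5 supplied promoters on the short list of cell cycle and senescence genes or of the 3 on the Polycomb list had a member within 10 kb, and no promoter of the fibroblast list was among those supplied.

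Single members near H3K27me3-only promoters held 20 to 35 wild-type tags among the 10 with most positions outside chromosome 18. On chromosome 18, the member near Onecut2 held 30 tags at 16 positions. The most positions were found near Bai1 (now Adgrb1), which encodes an adhesion receptor. This member, chr15:74349782-74351731, held 35 wild-type tags at 22 positions and 5 null tags, 5.33 kb from the promoter on its downstream side. Near Olig1, a transcription factor of the oligodendrocyte lineage, chr16:91147952-91149412 held 25 tags at 17 positions and 5 null tags, 8.22 kb upstream. Near Foxn4, a forkhead factor of retinal progenitors, chr5:114524884-114526410 held 28 tags at 16 positions and 4 null tags, 7.35 kb downstream. The scaled ratios of these 3 were 9.18 (3.58 to 30), 6.56 (2.47 to 21.9) and 9.18 (3.21 to 36.0), so the intervals of single members are wide and overlap.

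Near Fgf3, a secreted growth factor, chr7:144643400-144645073 held 22 tags at 16 positions and 4 null tags, 1.93 kb upstream. The member near Kcnd3, chr3:105582891-105584552, held 21 tags at 15 positions and 5 null tags, downstream of the promoter. Near Des, the muscle intermediate filament desmin, chr1:75250154-75251920 held 27 tags at 13 positions and 4 null tags. The other 4 of these genes were Bsn, a presynaptic scaffold, Mgat5b, a glycosyltransferase, Prrt3 and C1ql2, a secreted C1q-like protein. The member near C1ql2 had the fewest null tags of the 10, with 1 null and 20 wild-type tags.

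Near H3K4me3-only promoters the 10 members with most positions held 20 to 32 wild-type tags. At Pcdh7, chr5:58007572-58009273 held 31 tags at 19 positions and 7 null tags, with no other listed peak within 50 kb. At Sox11, a transcription factor of neural development, chr12:27925019-27926153 held 21 tags at 16 positions and 3 null tags, 1.83 kb downstream. At Cks1b, a subunit of cyclin-dependent kinases, chr3:89506821-89508508 held 20 tags at 16 positions and 2 null tags, 1.60 kb upstream. The members at Cks1b and Sox11 held the fewest wild-type tags of the 10. A relation between tags and closeness to the promoter was not tested. The member near Tgif2, a homeodomain repressor, held 31 tags at 18 positions and 4 null tags, and 3 members lay within 50 kb of that promoter. The remaining genes were Rps16 (a ribosomal protein), Flot2 (a membrane scaffold), Tomm40 (a mitochondrial import channel), Odz3 (a teneurin), Morn1 and Sned1. Housekeeping genes such as Rps16 and Tomm40 thus stood beside developmental ones among these 10.

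Near promoters that came from the list of promoter peaks alone, members with many positions lay next to Ccdc65, Cyp11b2, Cd68 and Gm1965. At Cyp11b2, the aldosterone synthase gene, chr15:74677551-74678853 held 31 tags at 16 positions and 4 null tags. The gaps from these 4 members to the nearest other listed peak ran from 3488 to 6583 bp, a distance at which the promoter peak itself can be that neighbour.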

How the data were processed

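Chromatin of 1 wild-type and 1 Bmi1 null line, cross-linked, sonicated and digested with micrococcal nuclease, was sequenced on the Illumina 1G. The authors mapped 25 bp tags to mm8 with the Solexa Analysis Pipeline, kept those with a unique place and at most 2 mismatches, and deposited 1 line per tag without normalization, repeats included. The authors called peaks with a modified TIROE algorithm, wild-type tags against null tags. The deposited peak list carries a count (wild-type tags, not normalized), a fold enrichment (the deposited ratio between the libraries, each taken relative to its total) and an enrichment p-value, all by the authors. Listed peaks reach a fold of 5 and stay at or below a p-value of 1e-05. The deposited p-value served only for a stricter alternative.

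Here each tag was placed 116 bp downstream of its 5′ end. Peak starts were read as counted from 0 and are printed counted from 1, since the outermost tags then lay 115 or 116 bp inside both edges of every member. The counts equalled the deposited count in 100% of peaks and returned the deposited fold, within a relative tolerance of 0.001, in 99.9%. Wild-type counts were scaled by null over wild-type totals, 1.31 for tags and 1.28 for distinct positions. Ratios of a single peak took null tags as at least 1. Bins of 1 Mb needed 500 null tags outside peaks. Mb are of covered chromosome, up to the last tag. Strand distances of 50 to 400 bp were smoothed over 5 bp. Promoters span 2 kb centred on the start site, and distances run from the nearer peak edge. The promoter list held here comprises 1999 genes, all with CpG-rich promoters, and the list of promoter peaks 671. Gene symbols are those of the lists, matched to RefSeq (GRCm38.p6). Intervals are exact Poisson or Clopper-Pearson at 95%.

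Peaks are named by a rule: among members within 10 kb of a promoter, the 10 with most positions for H3K27me3-only genes, the 10 for H3K4me3-only genes and 4 of the 5 for promoters in the peak list alone, then the 5 members with most positions, the 3 with most tags and the 3 with most positions among those with 0 null tags, none from chromosome 18. The top member of chromosome 18 and the members over 100 tags were described after their values were seen. The gene lists were homeobox genes, other developmental transcription factors, secreted developmental signals, ion channels, solute carriers, zinc finger Zfp genes, cell adhesion, fibroblast, cell cycle and senescence, and Polycomb genes. Members and lists were chosen with earlier results of these data known. The alternatives covered the limits on positions, width and p-value, tag placement, repeats, scaling and distances. The counting was tested on made-up tags. Whether the Bmi1 deletion shows in the tags was not analysed here. Python 3.11.15, numpy 2.4.6, pandas 2.3.3, SciPy 1.17.1 and Matplotlib 3.10.9 were used.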

Additional observations from a re-analysis of the deposited data

How the results depend on the processing

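No paired analysis was possible because each genotype has 1 library and no result comes from a test. Of 43 recomputed values, 16 stayed within the interval of the main value or, for the number of members, within 1.5 times of it, 27 moved further and 0 changed direction. Counts, shares and strand distances have no direction to change, and the highest density cannot fall below the lowest. The ratio inside members was selected to be high, so a change of direction was open in practice to the flank ratio only. The causes were not tested.

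With 12 or more positions there were 1412 members, and with a deposited p-value of 1e-07 or less 2487. These gave flank ratios of 1.27 and 1.24, repeat shares of 50.04% and 54.2%, 31.4% and 30.4% with a listed peak within 10 kb, and highest over lowest autosome densities of 6.19 and 5.15. The p-value limit gave a ratio inside members of 10.3, and 12 positions put 4.82% within 10 kb of a promoter. Members under 1500 bp had an inside ratio of 10.7 and a repeat share of 51.7%. Placing tags at the lower end of the alignment gave an inside ratio of 9.09. With 1 tag per position the flank and inside ratios were 1.20 and 5.83, and with scaling within each 1 Mb 1.01 and 8.12. The flank ratio at 5 to 20 kb was 1.19. From midpoint to start site, 3.24% of members lay within 10 kb, and the 50 kb limit gave 19.4% for promoters and 74.7% for listed peaks. Per null tag, the autosome ratio was 2.85. Alternatives chosen after seeing the data were leaving out the member with most tags, which gave an inside ratio of 9.23 and a repeat share of 46.9%, members without a listed peak within 50 kb, with a flank ratio of 1.09, and leaving out chromosome 15.

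The values rest on 1 library per genotype, and a median member holds 19 wild-type and 3 null tags, so single members have wide intervals. Members share neighbourhoods and are not independent, and distances to promoters are upper bounds.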
